A study of Mus musculus with 14 samples.

Results

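The myeloid cells of EO771 brain metastases (BrM) were compared with those of naïve spleens and naïve bone marrow, on 6 of the 14 arrays in the series. EO771 is a murine breast cancer cell line, and BrM were grown for approximately 2 weeks after intracranial injection into 14-week-old C57Bl/6J mice. The recipients carried chimeric bone marrow tagged with green fluorescent protein (GFP) driven by the Ubiquitin C promoter. The sort of GFP+CD11b+ cells is described for all 3 tissues, which in BrM takes bone marrow–derived cells with the integrin CD11b and leaves out host cells without GFP. Whether the naïve mice also carried chimeric bone marrow is not given in the sources used here, so transplantation may differ between the groups too. Each of the 3 tissues had 2 arrays. The naïve mice had the same strain and age and no tumor. Spleens and bone marrow of EO771 BrM-bearing mice are not among these arrays, so tissue and tumor status of the mouse cannot be told apart. The label of EO771 BrM 2 carries a pair of mouse numbers, and whether it was a pool is not stated.

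Myeloid cells entering a tumor are known to pass from monocytes to macrophages, which take up lipids and debris, cut matrix and release chemokines. Spleen and bone marrow are stores of neutrophils and their precursors, monocytes and, in the spleen, red pulp macrophages. The comparison therefore asks which genes of bone marrow–derived myeloid cells are high in BrM and low in both tissues that hold the same lineage elsewhere, which is also what a promoter restricted to BrM would need.

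Naïve bone marrow 1 and 2 carry codes with the same stem, and naïve spleen 1 carries the same mouse number. Over the 5110 probes with a mean log2 signal of at least 8, the SD of the difference was 0.123 between the bone marrow arrays, 0.296 between the EO771 BrM arrays and 0.370 between the spleen arrays. The study lists the 2 arrays of each tissue as biological replicates. By their codes and spread the bone marrow arrays may still be repeats of 1 sample. Counts are given below also with the pair averaged as 1. Comparisons with spleen or bone marrow alone share the spread of all 3 groups and depend on this choice: 1284 probes were higher and 1343 lower than in bone marrow, and 43 and 39 with the pair averaged. Against bone marrow 6 were higher and 14 lower without EO771 BrM 1, and 0 and 0 without EO771 BrM 2. Against spleen 632 were higher and 681 lower, 197 and 234 with the pair averaged, 33 and 65 without EO771 BrM 1, and 49 and 62 without EO771 BrM 2. The reference genes, 11 genes used to compare RNA amounts, had mean log2 signals of 11.21 and 11.20 in the EO771 BrM arrays and 10.91 to 10.94 in the naïve arrays, and none of them was called. Centring each array on them moved the median difference of all probes by -0.285 and brought the higher share among called probes from 69.8% down to 55.2%. The cells of these groups may differ in their mix, and in sorted samples fewer cells of a type and less RNA per cell cannot be told apart.

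Signals are log2 values per probe, with a median of 4.06 on each array. A difference of 1 is a doubling, and probes near the lower end carry little but background, so folds against them are limited by that end. Probes were called at an adjusted p under 0.01 in limma, fitted to the 6 arrays with the 4 naïve arrays as 1 group. Of 44027 probes outside the sex chromosomes, 502 (1.14%) were higher in EO771 BrM and 217 (0.493%) were lower. The first covered 342 named genes and the second 150. Both EO771 BrM arrays lay above all 4 naïve arrays for 7040 probes (16.0%) and below them for 6509 (14.8%), and every called probe was among these. A further limit is the number of BrM arrays, since 14 probes were higher and 2 lower without EO771 BrM 1, and 23 and 3 without EO771 BrM 2. With the bone marrow arrays averaged, 246 were higher and 78 lower. Of the 72 probes named by the rule, 64 were called, 48 with the bone marrow arrays averaged, 10 without EO771 BrM 1 and 13 without EO771 BrM 2. The 10 called without either belong to Camp, Ccl12, Ccl7, Cdkn1a, Cxcl10, Dab2, Emp1, Ltf and Mmp14. None of the 64 called differences changed its sign under an alternative, whereas those of Mgp and Ptprc, near 0 and not called, did.

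The largest changes were a rise of chemokines and phagocyte genes and a fall of neutrophil granule genes. Of the called probes, 193 were over 10-fold higher and 54 over 10-fold lower. The 12 largest rises were those of Ccl7, Emp1, Fcrls, Gpnmb, Ccl12, Cxcl10, Ifi205, Dab2, Thbs1, Ccl2, Arg1 and Cav1. The 12 largest falls were those of Ngp, Ltf, Camp, Mpo, Chil1, Itgb2l, Fcna, Pglyrp1, Stfa1, Cd163, Lrg1 and Mmp9. Ngp, Ltf, Camp, Mpo, Chil1, Itgb2l, Pglyrp1, Stfa1 and Mmp9 are in the list of neutrophil markers, whereas Fcna, a ficolin, and Cd163, the scavenger receptor for haptoglobin and hemoglobin, are known from macrophages of tissues. Stfa1 and Ifi205 belong to families of near-identical genes, so their probes may also take up relatives.

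**Figure D1:**
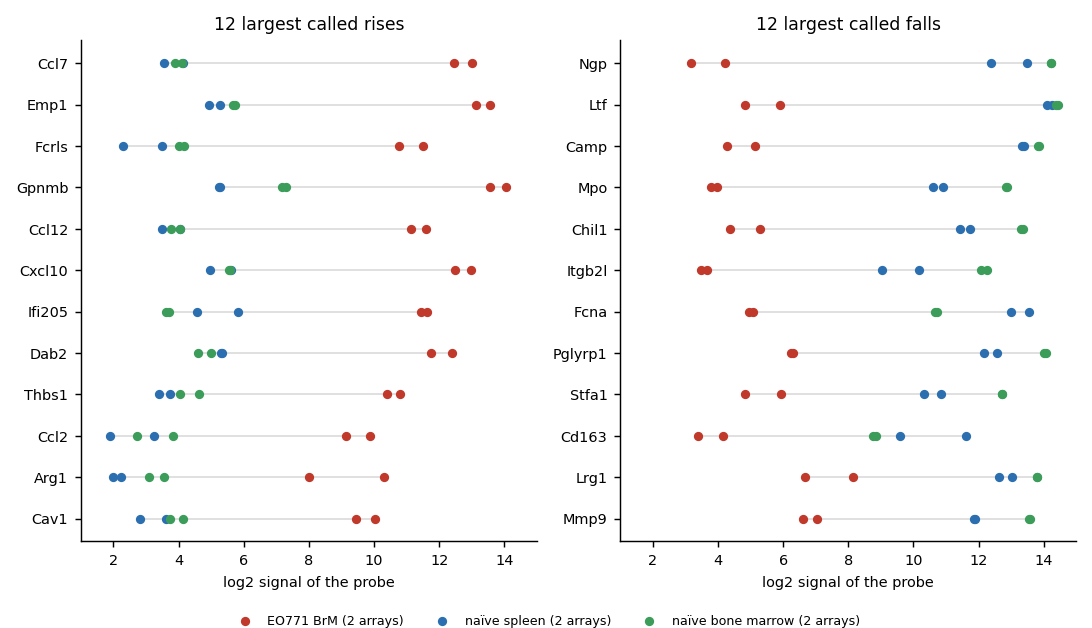
Log2 signal (x axis) of the 12 largest called rises (left) and falls (right) in each of the 6 arrays, 1 row per gene, with 1 point per array and a gray line over their range. For a gene with several probes the probe of the largest difference is drawn. In every row the 2 EO771 BrM points lie apart from the 4 naïve points, and the bone marrow points nearly coincide in most rows of the right panel.

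The study considered a set of genes as sources of a promoter that would limit expression to BrM. Of 10 listed, 8 were used here and 2 were not. Spp1, whose promoter the study also cloned, was not among those used. Of the 8, 7 rose, with a median log2 difference of 6.46, whereas the median over all 18327 named genes was -0.00998. The list was chosen by the study on these arrays and is no independent evidence of its direction. With the bone marrow arrays averaged 6 were called, and with any 1 of the 6 arrays left out the count was 4 to 6, being 4 without EO771 BrM 1 and 5 without EO771 BrM 2. Against spleen alone 7 were higher and against bone marrow alone 7, which became 6 and 5 with the pair averaged, 5 and 1 without EO771 BrM 1, and 5 and 0 without EO771 BrM 2. Both EO771 BrM arrays lay above all naïve arrays for each of the 8, where 16.0% of all probes did so.

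Mmp14 encodes a membrane-anchored metalloproteinase that degrades collagen and activates other metalloproteinases. Its log2 signal was 12.75 and 12.81 in EO771 BrM, 6.94 and 6.44 in naïve spleens, and 6.91 and 6.85 in naïve bone marrow. All 4 naïve arrays lay far below EO771 BrM, and naïve spleen 2 was the lowest of them. The difference was 5.99 (SE 0.23, 63.7-fold, adjusted p = 1.33e-04 from limma). Between the lowest BrM array and the highest naïve array there was a gap of 5.81 on the log2 scale, and 7 of the 290 genes called higher by their brightest probe had a larger one. A second Mmp14 probe stayed at background in all 6 arrays, with 3.61 and 3.43 in EO771 BrM against 3.68 to 4.14 (difference -0.31, adjusted p = 0.561). The mean of both probes differed by 2.84.

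Ccl7, a chemokine that attracts monocytes, had the widest gap, 8.31. Its signal was 13.01 and 12.45 in EO771 BrM, 3.54 and 4.14 in naïve spleens, and 3.89 and 4.10 in naïve bone marrow. The naïve values lay near the median of the array, where signals carry little but background. The difference was 449-fold (log2 8.81, SE 0.28, adjusted p = 1.17e-04 from limma). Emp1, a membrane protein of the tetraspan type, had 13.56 and 13.12 in EO771 BrM, 5.27 and 4.93 in naïve spleens, and 5.65 and 5.73 in naïve bone marrow. It was the second in gap, at 7.39.

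Dab2, an adaptor of endocytosis, had 12.60 and 12.06 in EO771 BrM, 5.36 and 5.99 in naïve spleens, and 5.32 and 4.98 in naïve bone marrow by its brighter probe, a difference of 6.92 (SE 0.33). The probe of the largest difference gave 7.03 (SE 0.31), another probe 4.19 (SE 0.30), and a dim one -0.22 with no call. The brighter probes thus placed EO771 BrM far above both naïve tissues. Trem2, the lipid receptor of macrophages, and Cxcl16, a transmembrane chemokine and scavenger receptor, had narrower gaps of 3.99 and 3.10. Their naïve values differed by tissue. Cxcl16 stood at 8.20 and 7.98 in spleens against 6.50 and 6.57 in bone marrow, and Trem2 at 5.82 and 5.31 against 6.98 and 6.90.

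Arg1, which encodes the arginine-degrading enzyme arginase, differed between the BrM arrays themselves. Its brighter probe read 9.30 and 6.97 in EO771 BrM against 3.69 to 4.46 in the naïve arrays, and was not called (difference 4.13, SE 0.60, adjusted p = 0.0130 from limma). Its other probe read 10.31 and 7.99 against 2.00 to 3.56 and was called (difference 6.43, SE 0.71, adjusted p = 0.00455), but not with the bone marrow arrays averaged (adjusted p = 0.0116) or without either EO771 BrM array.

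Since Mmp14 and Emp1 have RefSeq promoter entries and Mmp14 was the promoter of interest, the 250 bases before their start sites are printed, from GRCm38.p6 and read 5′ to 3′. Capitals mark matches to any of 5 motifs searched on both strands: TTTC repeated after any 2 bases, the core of the interferon-stimulated response element (ISRE), TGANTCA of AP-1, TTGCNNAA of C/EBP, GAGGAAGT of PU.1, and the NF-kB motif. AP-1 is the dimer of Fos and Jun proteins. The Mmp14 window, chr14:54431348-54431597 on the plus strand, holds no match to the 5 motifs. The first of the 2 Emp1 windows, chr6:135362681-135362930 on the plus strand, holds 2 AP-1 matches, which start 145 and 25 bases before the start site. The second Emp1 window holds none of the 5 motifs. Emp1 is annotated at chr6:135362550-135383173, so both of its windows, and the AP-1 matches, lie within the annotated gene. They precede start sites downstream of its first base.
Mmp14: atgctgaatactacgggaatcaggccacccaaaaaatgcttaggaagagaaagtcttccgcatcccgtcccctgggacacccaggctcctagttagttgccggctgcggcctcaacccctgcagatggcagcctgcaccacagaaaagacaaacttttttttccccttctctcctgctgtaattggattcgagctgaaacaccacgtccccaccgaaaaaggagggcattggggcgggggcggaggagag
Emp1: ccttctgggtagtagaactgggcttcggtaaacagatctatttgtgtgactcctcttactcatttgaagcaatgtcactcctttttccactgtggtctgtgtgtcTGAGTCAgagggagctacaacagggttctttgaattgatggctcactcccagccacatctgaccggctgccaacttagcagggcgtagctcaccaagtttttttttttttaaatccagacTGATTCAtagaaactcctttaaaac

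Among the genes called higher, 260 of 342 had a promoter entry. AP-1 matches stood in 13.1% of these, 5.74% of the 122 called lower that had an entry, and 7.22% of the 14609 measured genes with one. NF-kB matches stood in 9.62%, 9.02% and 5.07%. These shares are descriptions of letters in the windows, and binding was not measured.

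Chemokine ligands, which recruit leukocytes, rose as a group in number but not throughout. Of 35 measured ligands, 11 rose and none fell, with a median difference of 0.78. The risers were Ccl2, Ccl3, Ccl4, Ccl7, Ccl8, Ccl9, Ccl12, Cxcl1, Cxcl2, Cxcl10 and Cxcl16. Ccl2, Ccl7 and Ccl12 are ligands of the monocyte receptor Ccr2, Ccl3 and Ccl4 are macrophage inflammatory proteins, and Cxcl1 and Cxcl2 attract neutrophils through Cxcr2. Against spleen alone 11 were higher, and against bone marrow alone 11 were higher and 1 lower. With the pair averaged 7 were higher than in spleen, and 3 higher and 0 lower than in bone marrow. Without EO771 BrM 1 these were 4 and 1 higher, and without EO771 BrM 2 they were 5 and 0. In the same comparisons 1.44% and 2.92% of all probes were higher, and 1.55% and 3.05% lower. The count was 6 with the bone marrow arrays averaged and 3 to 7 with 1 array left out, being 3 without either EO771 BrM array.

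Ccl12 read 12.21 and 11.71 in EO771 BrM, 4.59 and 4.42 in naïve spleens, and 4.53 and 4.54 in naïve bone marrow. The naïve tissues overlapped. The difference was 7.44 (SE 0.23, adjusted p = 1.17e-04 from limma), and the second probe gave 7.54 (SE 0.26). Ccl2 read 9.86 and 9.14 in EO771 BrM, 1.89 and 3.25 in naïve spleens, and 2.71 and 3.82 in naïve bone marrow, all 4 naïve values lying below the median signal. Its difference was 6.58 (SE 0.53, adjusted p = 0.00156). The neutrophil attractant Cxcl2 read 12.11 and 10.64 against 4.20 to 6.08, and Ccl4 read 14.03 and 13.55 against 8.71 to 9.68.

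Ccl19 (3.97 to 4.71), Ccl20 (3.84 to 4.10) and Ccl21a (3.49 to 4.54) were near background in all 6 arrays. Ccl5 was a case of tissue-specific contrast. It read 10.57 and 11.13 in EO771 BrM, 11.19 and 10.79 in naïve spleens, and 6.27 and 6.18 in naïve bone marrow. EO771 BrM and spleen overlapped, and EO771 BrM exceeded bone marrow by 4.63 (adjusted p = 9.55e-04 from limma, 0.0126 with the pair averaged). Cxcl12, the ligand that holds progenitors in the marrow, read 8.20 and 8.22 in bone marrow by its brightest probe, against 4.19 to 5.11 in the other arrays.

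Of 22 chemokine receptors, 1 rose and 2 fell (median -0.12). The riser was Ccrl2, an atypical receptor, with 9.92 and 10.38 against 6.15 to 7.31 (difference 3.47, SE 0.39, adjusted p = 0.00483 from limma, 0.0129 with the bone marrow arrays averaged). The receptors that fell, Cxcr1 and Cxcr2, are in the list of neutrophil markers, and Cxcr2 is the receptor for Cxcl1 and Cxcl2. Of the 2 Cxcr2 probes the dimmer had a difference of -0.46 and was not called. Cxcr2 read 6.17 and 5.44 in EO771 BrM, 9.75 and 10.17 in naïve spleens, and 10.89 and 11.06 in naïve bone marrow (difference -4.66, SE 0.43, adjusted p = 0.00249). None of the 3 was called without either EO771 BrM array, with adjusted p of 0.0184 to 0.0626.

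Metalloproteinases moved in both directions. Of 25 measured members of the family and its inhibitors, 3 rose and 1 fell, with a median of 0.11. Beside Mmp14 these were Mmp13, a collagenase, and Mmp3, a stromelysin, and the gelatinase Mmp9, a neutrophil granule enzyme, was the one that fell. Mmp13 read 12.71 and 10.20 in EO771 BrM, 5.21 and 5.11 in naïve spleens, and 5.83 and 6.19 in naïve bone marrow. The BrM arrays differed by more than 2 log2 units, and the difference of 5.87 (SE 0.68) had an adjusted p of 0.00537, and of 0.0146 with the bone marrow arrays averaged. Of the 3 Mmp13 probes 1 was called, with differences from 0.30 to 5.87. Mmp9 read 7.05 and 6.61 in EO771 BrM, 11.86 and 11.88 in naïve spleens, and 13.56 and 13.56 in naïve bone marrow (difference -5.88, SE 0.60, adjusted p = 0.00349). With the bone marrow arrays averaged Mmp14 and Mmp9 were called. With any 1 array left out Mmp14 was the 1 riser called, and Mmp9 was lost without either EO771 BrM array (adjusted p = 0.0446 and 0.0485).

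Macrophage markers rose in part. Of 22 measured, 6 rose (Fcgr1, Msr1, Ms4a7, Gpnmb, Trem2 and Dab2) and 1 fell (Cd163), with a median of 1.70. The mean log2 signal of the list was 10.67 and 10.58 in EO771 BrM, 8.63 and 9.36 in naïve spleens, and 8.01 and 8.02 in naïve bone marrow, so that all arrays carried the markers and BrM carried most. Averaging the bone marrow arrays left the 6 risers called and ended the fall, and with 1 array left out 0 to 7 rose, with 0 without EO771 BrM 1 and 1 without EO771 BrM 2.

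Gpnmb, a glycoprotein of phagocyte lysosomes, read 13.56 and 14.06 in EO771 BrM, 5.25 and 5.27 in naïve spleens, and 7.31 and 7.18 in naïve bone marrow. Its difference was 7.55 (SE 0.69, adjusted p = 0.00234 from limma). Fcgr1, the high-affinity IgG receptor, read 11.30 and 11.38 against 6.51 to 7.41, and Msr1, the macrophage scavenger receptor, 9.70 and 9.47 against 5.04 to 5.51. Cd163 went the other way, with 4.15 and 3.37 in EO771 BrM, 9.58 and 11.62 in naïve spleens, and 8.85 and 8.77 in naïve bone marrow. EO771 BrM were at background for it by this probe (difference -5.94, SE 0.80, adjusted p = 0.00949). A second Cd163 probe gave -0.96 and was not called, and neither was the mean of both probes (-3.45).

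Adgre1 and Csf1r were not called against both tissues pooled. Adgre1, which encodes F4/80, read 10.42 and 10.74 in EO771 BrM, 10.07 and 10.39 in naïve spleens, and 8.79 and 8.62 in naïve bone marrow. Csf1r, the receptor for the macrophage growth factor, read 10.15 and 10.38, 10.66 and 11.32, and 8.51 and 8.72 in the same order. The differences from spleen alone were 0.35 and -0.72 and did not pass the test (adjusted p = 0.43 and 0.20 from limma). A dimmer Adgre1 probe disagreed, with 2.36 against spleen (adjusted p = 0.0075, and 0.0206 with the pair averaged). The complement subunits C1qa, C1qb and C1qc differed from bone marrow by 2.89, 3.36 and 3.06, of which C1qa did not pass (adjusted p = 0.019). With the pair averaged none of the C1q genes passed (adjusted p = 0.0306 to 0.0956). Of the 22 macrophage markers 11 were higher and 1 lower than in bone marrow, and 2 and 0 with the pair averaged.

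The lipid-associated macrophage program, known from foam cells and damaged tissue, held 5 risers among 21 measured genes and none that fell (median 0.85). These were Trem2, Gpnmb, Fabp5, Apoc2 and Ch25h, and all 5 held with the bone marrow arrays averaged, whereas 0 held without EO771 BrM 1 or 2. Ch25h, which makes 25-hydroxycholesterol, read 9.20 and 9.59 in EO771 BrM against 3.55 to 4.28 in the naïve arrays (difference 5.47, SE 0.30, adjusted p = 4.85e-04 from limma). Tyrobp, the signaling adaptor of Trem2, was level at 11.81 to 11.97 in all 6 arrays. The lipid genes Apoe and Plin2 had differences of 2.69 and 1.92, with adjusted p of 0.0587 and 0.051.

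Scavenger and Fc receptors gave 6 risers and 1 fall among 20 (median 0.57). They were Msr1, Stab1, Cxcl16, Fcgr1, Fcrls and the inhibitory IgG receptor Fcgr2b, and Cd163. With the bone marrow arrays averaged 4 rose, and none was called without EO771 BrM 1 or 2. Of 23 lysosomal hydrolases and proton pump subunits, 2 rose, Grn and Npc2, and none fell (median 0.96). Grn, the precursor of granulins, read 13.89 and 14.03 against 11.59 to 12.16, and Npc2, which moves cholesterol out of lysosomes, 11.65 and 11.27 against 8.48 to 8.82. Their differences were 2.16 and 2.81. Averaging the bone marrow arrays left Npc2, and leaving out either EO771 BrM array left none. Both EO771 BrM arrays exceeded all naïve arrays for 17 of the 23 genes, where 16.0% of all probes did so.

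Microglia are the resident macrophages of the brain and derive from the yolk sac. Of 12 measured microglia markers 5 rose and none fell (median 0.88). Those that rose, Tmem119, Olfml3, Fcrls, Sparc and Trem2, held with the bone marrow arrays averaged, and 0 were called without EO771 BrM 1 or 2. Fcrls, an Fc receptor-like gene, read 10.76 and 11.50 in EO771 BrM, 2.30 and 3.49 in naïve spleens, and 4.17 and 4.02 in naïve bone marrow. Tmem119, a membrane protein of microglia, read 8.56 and 9.50 against 4.71 to 5.21. Other defining markers were not among the risers. P2ry12, the purinergic receptor of resting microglia, read 5.94 and 6.07 in EO771 BrM and 5.71 to 6.13 in the naïve arrays. Sall1, their transcription factor, read 5.32 and 5.40 against 4.40 to 5.07, and Siglech 4.91 and 4.92 against 5.86 to 6.82.

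Interferon-stimulated genes, which are switched on through interferon receptors or viral sensors, were the list with the largest median rise among those not chosen by the study. Of 28 measured, 15 rose and none fell, with a median of 2.71 (2.69 against spleen alone, 2.91 against bone marrow alone). The risers were Ifit2, Ifit3, Isg15, Isg20, Mx1, Mx2, Oas1a, Oas2, Oasl1, Irf7, Stat2, Rsad2, Usp18, Gbp2 and Cxcl10. The mean log2 signal of the list was 9.79 and 9.99 in EO771 BrM, 7.27 and 6.81 in naïve spleens, and 6.83 and 6.80 in naïve bone marrow. Both EO771 BrM arrays lay above all naïve arrays for 23 of the 28, where 16.0% of all probes did so. The count was 12 with the bone marrow arrays averaged, and 1 to 15 with 1 array left out, with 1 without either EO771 BrM array.

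Cxcl10 read 12.48 and 12.97 in EO771 BrM, 5.59 and 4.96 in naïve spleens, and 5.55 and 5.57 in naïve bone marrow, a difference of 7.31 (SE 0.28, adjusted p = 1.33e-04 from limma). Mx1, an antiviral GTPase, read 9.88 and 10.31, 5.36 and 4.67, and 4.16 and 4.00 in the same order, a difference of 5.55 (SE 0.41). Both genes went from near background to a strong signal. Oasl1 read 10.98 and 11.07 against 5.81 to 6.57 (difference 4.76, SE 0.28), and Rsad2, which encodes viperin, 13.78 and 13.65 against 8.79 to 9.82 (difference 4.36, SE 0.35). Ifi205, of the p200 family and outside the list, was among the 12 largest rises, with 11.44 and 11.62 against 3.62 to 5.82.

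Gbp2, a guanylate-binding protein, was called by its brightest probe (3.01, adjusted p = 0.00747 from limma), and its relative Gbp3 was not (2.73, adjusted p = 0.0936). Nor were Cxcl9 and the transcription factor Irf1. Cxcl9 read 7.72 and 9.38 in EO771 BrM, 8.77 and 7.98 in naïve spleens, and 6.82 and 6.84 in naïve bone marrow, so that EO771 BrM and spleens overlapped. Irf1 read 12.13 and 12.36 against 11.60 to 12.37 by its brightest probe. Their differences were 0.95 and 0.26 (adjusted p = 0.55 and 0.732 from limma), and dimmer Irf1 probes gave up to 1.18 with no call.

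The promoters of these genes are shown for Rsad2 and Cxcl10, which hold the ISRE core. Capitals mark matches to the 5 motifs. By any of their probes 16 of the listed genes were called higher, 12 of these had a promoter entry, and 7 of the 12 (58.3%) held the ISRE core, namely Cxcl10, Gbp2, Ifit3, Isg15, Oas1a, Rsad2 and Stat2. The core stood in 8.06% of the 248 windows of other genes called higher, 1.64% of those called lower and 3.54% of measured genes. Listed genes that were not called were not counted apart, so being called and being listed cannot be told apart in these shares. The Rsad2 window is chr12:26456453-26456702 and the Cxcl10 window chr5:92348890-92349139, both on the minus strand. In Rsad2 the ISRE core starts 120 and an AP-1 match 87 bases before the start site. In Cxcl10 the ISRE core starts 213, a pair of NF-kB matches 159 and 103, and an AP-1 match 74 bases before it.
Rsad2: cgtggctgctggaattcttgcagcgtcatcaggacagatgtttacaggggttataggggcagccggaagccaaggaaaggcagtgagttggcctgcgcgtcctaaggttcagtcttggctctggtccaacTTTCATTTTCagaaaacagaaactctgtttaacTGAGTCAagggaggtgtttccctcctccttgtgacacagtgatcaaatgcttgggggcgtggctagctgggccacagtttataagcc
Cxcl10: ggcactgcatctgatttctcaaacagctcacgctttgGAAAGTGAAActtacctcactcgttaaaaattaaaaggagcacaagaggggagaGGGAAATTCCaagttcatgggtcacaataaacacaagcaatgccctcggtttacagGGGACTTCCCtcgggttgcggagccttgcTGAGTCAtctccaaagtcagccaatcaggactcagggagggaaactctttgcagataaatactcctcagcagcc

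The difference of EO771 BrM was also set against that of PyMT BrM, the second model of the series, in which 4 BrM arrays were set against 4 spleen and bone marrow arrays of the BrM-bearing mice. The differences of the models were compared in 1 fit of all 14 arrays, and 53 probes (0.120%) differed by limma, 36 with the larger value in EO771 and 17 in PyMT, while 3913 passed an unadjusted p under 0.05. Of the 28 interferon-stimulated genes 3 were called by their brightest probe, Mx1, Oasl1 and Rsad2, all with the larger value in EO771. Dimmer probes of Cxcl10 and Ifit3 were also called, and their brightest were not (adjusted p = 0.165 and 0.023). In that fit 17 of the 28 were higher in EO771 BrM and 5 in PyMT BrM, with median differences of 2.71 and 0.59. Rsad2 had a difference of 4.36 in EO771 and -0.19 in PyMT, Oasl1 4.76 and 0.35, and Mx1 5.55 and 1.19. Model and control are changed together here, since PyMT controls bore tumors and EO771 controls did not, so their parts cannot be told apart. The tissue mix of the controls differs too, with more spleen than bone marrow arrays for PyMT and equal numbers for EO771. Genes that differ between these tissues can thus enter the comparison of the models.

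**Figure D2:**
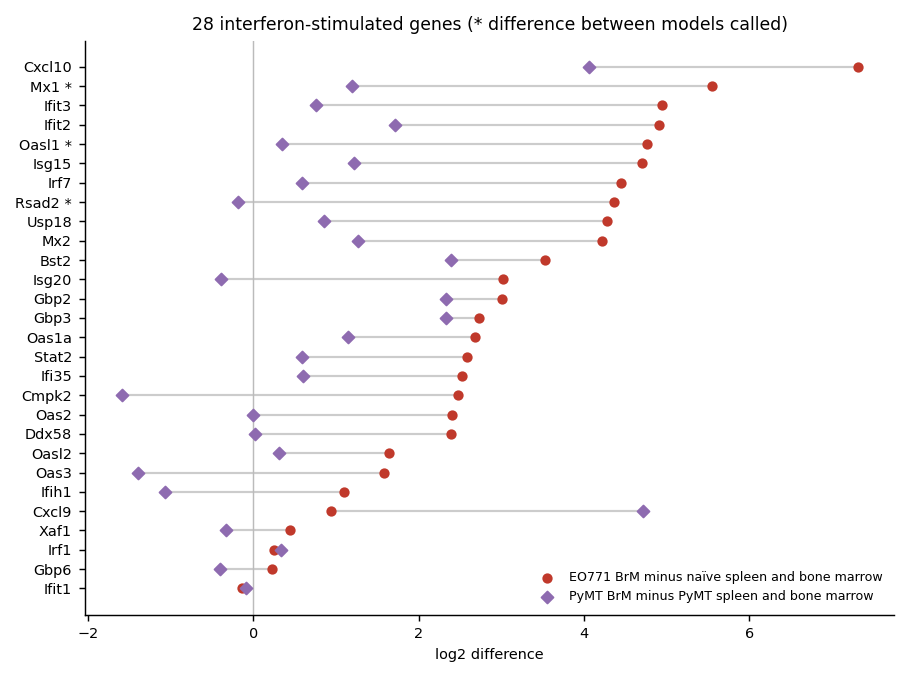
Log2 difference (x axis) of BrM from the arrays of both other tissues for 28 interferon-stimulated genes, 1 row per gene. Circles stand for EO771 (2 BrM against 4 naïve arrays), diamonds for PyMT (4 BrM against 4 arrays of BrM-bearing mice), and asterisks mark Mx1, Oasl1 and Rsad2, whose differences between the models were called. Cxcl9 has the larger value in PyMT, 4.71 against 0.95, a difference that was not called.

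Other genes called between the models included matrix and chemokine genes. Dppa4, known from pluripotent cells, read 7.35 and 7.38 in EO771 BrM against 2.61 to 3.43 in the naïve arrays, a difference of 4.23, where PyMT BrM had -0.47. Of its 4 probes 1 was called, with differences from -0.02 to 4.23. Its second probe gave 2.06 and 0.11, and the models did not pass the test with it (adjusted p = 0.291 from limma). Col14a1 fell short of the call in EO771 BrM (-2.85, adjusted p = 0.0324) and was 2.91 in PyMT. Mgp, matrix Gla protein, had 0.23 in EO771 and 5.89 in PyMT, Mmp2, a gelatinase, 1.98 and 5.13, and Ccl17, a ligand of the receptor Ccr4, 0.78 and 4.50. Mgp and Ccl17 were thus near the naïve level in EO771 BrM, with 4.36 and 5.09 and with 5.01 and 5.22.

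Immediate-early genes rose in part. These are transcription factors and regulators that respond to growth signals and stress within minutes, and dissociation of tissue is known to induce them. Of 27 measured, 8 rose (Fos, Fosb, Jun, Egr1, Egr2, Atf3, Ier3 and Dusp1) and none fell (median 1.90). Fos read 13.03 and 13.11 in EO771 BrM, 8.71 and 8.70 in naïve spleens, and 8.37 and 8.27 in naïve bone marrow (difference 4.56, SE 0.23, adjusted p = 4.64e-04 from limma). Fosb read 9.97 and 9.87 against 4.28 to 4.83 (difference 5.45, SE 0.24). The replicates were tight and the groups far apart. With the bone marrow arrays averaged 4 were called, and with 1 array left out 0 to 6, being 0 without EO771 BrM 1 and 1 without EO771 BrM 2. How long each tissue was dissociated is not given in the sources used here, and the part of handling in these values was not tested.

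Cdkn1a, which encodes the cell cycle inhibitor p21, read 11.98 and 11.88 in EO771 BrM, 6.70 and 6.29 in naïve spleens, and 6.59 and 6.50 in naïve bone marrow (difference 5.40, SE 0.21, adjusted p = 1.46e-04 from limma). It was called under every alternative that was run. Of 15 inhibitors and p53 targets, 2 rose, Cdkn1a and Plk2, and 1 fell, Trp53inp1 (median -0.01), of which Cdkn1a alone held with the bone marrow arrays averaged or without either EO771 BrM array. The angiogenic list had 3 risers of 23, Angpt2, Thbs1 and Flt1 (median 0.30), all 3 called with the bone marrow arrays averaged, with 0 called without EO771 BrM 1 and 1 without EO771 BrM 2. Thbs1, thrombospondin 1, read 10.79 and 10.38 against 3.40 to 4.62 (difference 6.63, SE 0.36), and Angpt2, the vessel-destabilizing angiopoietin, 9.63 and 8.50 against 4.94 to 5.28 (3.95, SE 0.33). A second Angpt2 probe gave 0.04 and was not called.

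Ligands for T and tumor cells rose in 2 of 19 cases (median 1.31). Cd276, an immune checkpoint of the B7 family, read 8.53 and 8.57 against 3.88 to 4.47 (difference 4.41, SE 0.24, adjusted p = 4.85e-04 from limma). Tnfsf10, which encodes TRAIL, the death ligand that the study delivered as a transgene, read 6.85 and 7.09 in EO771 BrM, 4.93 and 4.73 in naïve spleens, and 4.50 and 3.96 in naïve bone marrow. Its own level was thus low but above the naïve tissues (2.44, SE 0.31, adjusted p = 0.00779, and 0.0151 with the bone marrow arrays averaged). Tnf, the one riser of 22 inflammatory cytokines and prostaglandin enzymes (median 0.63), had a difference of 1.99 (adjusted p = 0.00824, and 0.0177 with the bone marrow arrays averaged). Tnf was not called with any 1 array left out, and no checkpoint ligand without EO771 BrM 1 or 2.

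**Figure D3:**
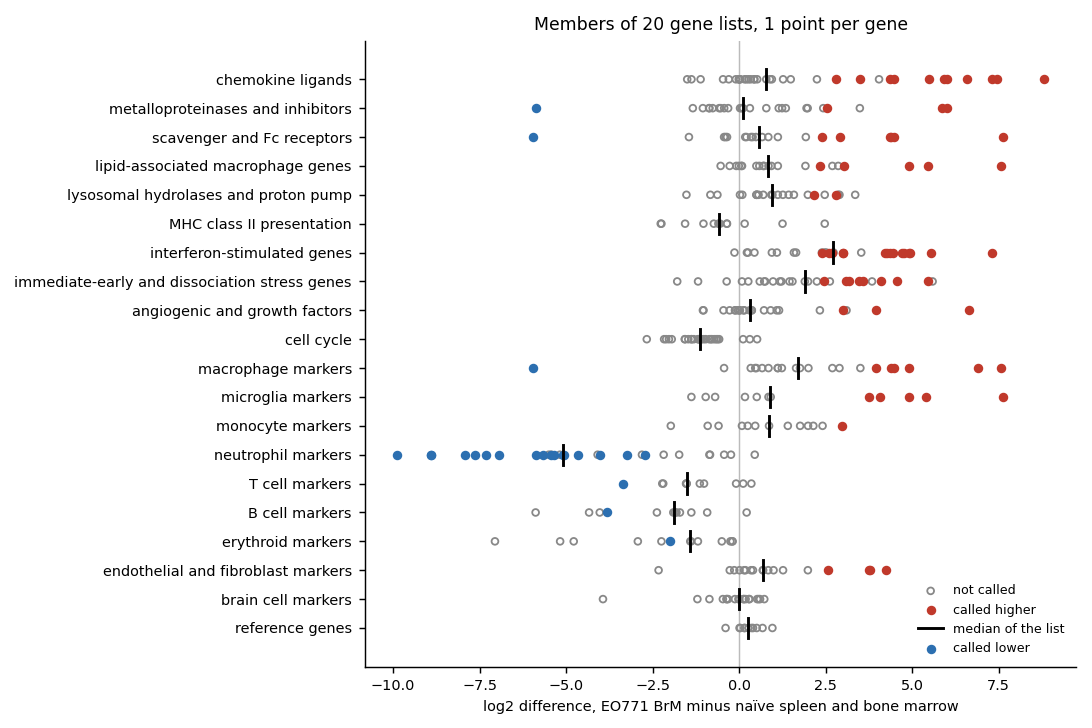
The x axis gives the log2 difference of EO771 BrM from the naïve arrays, with a point for every measured gene and a row for each of 20 lists. Red (higher) and blue (lower) filled points passed the limma threshold of 0.01 on the adjusted p, open points did not, and black bars are list medians. Called chemokine ligands and interferon-stimulated genes lie on the higher side alone and called neutrophil markers on the lower side alone.

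Neutrophil markers fell most. Of 29 measured, 17 fell and none rose, with a median of -5.08. The mean log2 signal of the list was 6.76 and 6.52 in EO771 BrM, 10.64 and 10.44 in naïve spleens, and 11.93 and 11.96 in naïve bone marrow. Both EO771 BrM arrays lay below all naïve arrays for 24 of the 29, where 14.8% of all probes did so. Of the 29, 21 were lower against spleen alone and 25 against bone marrow alone, which became 13 and 9 with the pair averaged, 7 and 7 without EO771 BrM 1, and 7 and 0 without EO771 BrM 2. In the pooled comparison, averaging the bone marrow arrays left 12, and leaving out 1 array left 2 to 13, with 2 without either EO771 BrM array.

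The largest falls were those of secondary granule genes. Ngp read 3.17 and 4.21 in EO771 BrM, 13.50 and 12.37 in naïve spleens, and 14.21 and 14.21 in naïve bone marrow (difference -9.89, SE 0.58, 947-fold lower, adjusted p = 5.99e-04 from limma). Ltf, lactoferrin, read 4.84 and 5.91 against 14.11 to 14.43 (-8.91, SE 0.32), and Camp, cathelicidin, 4.28 and 5.13 against 13.32 to 13.85 (-8.89, SE 0.32). Mpo, the myeloperoxidase of primary granules, read 3.97 and 3.80 in EO771 BrM, 10.89 and 10.58 in naïve spleens, and 12.87 and 12.84 in naïve bone marrow. Primary granule enzymes are made by precursors, and Mpo was lower in spleens than in bone marrow in every array.

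The list was not uniform. S100a8, a calcium-binding protein shared by neutrophils and monocytes, still read 12.53 and 11.92 in EO771 BrM against 13.83 to 14.03, and was not called (-1.73, adjusted p = 0.0113). Fpr2, a formyl peptide receptor, read 13.12 and 12.65 against 12.41 to 14.03, and Chil3, which macrophages also express, 13.06 and 12.71 against 12.65 to 13.60. Both overlapped the naïve arrays. The signals of S100a8, Fpr2 and Chil3 were high in all arrays.

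Of the 17 markers called lower 16 had a promoter entry, and 6 of these (37.5%) held the C/EBP motif, Lcn2, Ltf, Ngp, Retnlg, S100a9 and Stfa1. The motif stood in 19.7% of all genes called lower that had an entry, 11.9% of those called higher and 10.2% of measured genes. The PU.1 motif stood in 4 of the same 16 windows (25%), those of Elane, Itgb2l, Mpo and Prtn3, against 4.92% of genes called lower, 3.08% of those called higher and 2.68% of measured genes. NF-kB matches stood in 2 (12.5%), those of Chil1 and Pglyrp1, and the ISRE core and AP-1 in 0. C/EBP factors are known to drive granule genes. Listed neutrophil markers that were not called were not counted apart, so these shares cannot tell the call from list membership. Ngp and Ltf are shown, with the motif in capitals. The Ngp window, chr9:110419558-110419807 on the plus strand, has matches that start 138 and 11 bases before the start site, and the Ltf window, chr9:111019042-111019291 on the plus strand, has 1 that starts 75 bases before it.
Ngp: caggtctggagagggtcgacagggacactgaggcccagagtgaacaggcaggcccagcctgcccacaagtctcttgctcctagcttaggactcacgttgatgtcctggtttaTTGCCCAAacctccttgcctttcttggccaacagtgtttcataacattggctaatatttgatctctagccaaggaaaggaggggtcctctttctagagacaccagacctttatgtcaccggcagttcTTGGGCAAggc
Ltf: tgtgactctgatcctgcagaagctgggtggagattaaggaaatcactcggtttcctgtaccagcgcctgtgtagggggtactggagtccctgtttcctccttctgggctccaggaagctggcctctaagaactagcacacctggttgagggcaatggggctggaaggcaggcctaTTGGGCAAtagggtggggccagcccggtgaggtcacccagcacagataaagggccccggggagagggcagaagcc

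Markers of other blood cells followed the tissue of the control. B cell markers had list means of 4.22 and 3.97 in EO771 BrM, 7.63 and 7.08 in naïve spleens, and 5.86 and 5.75 in naïve bone marrow. Erythroid markers had 5.10 and 4.90, 6.69 and 6.35, and 8.04 and 7.94 in the same order. B cell markers were thus highest in spleens, erythroid markers in bone marrow, and both were lowest in EO771 BrM. Against spleen alone 7 of 12 B cell markers were lower, among them Cd79b of the B cell receptor (-5.88), and against bone marrow alone 7 of 13 erythroid markers, among them the anion exchanger Slc4a1 (-8.96). With the pair averaged these were 4 and 0, Cd79b being called (adjusted p = 0.00297 from limma) and Slc4a1 not (0.0139). Without EO771 BrM 1 or 2, 3 B cell markers were called against spleen and 0 erythroid markers against bone marrow. In the pooled comparison 1 member of each list fell, Vpreb3 and the transferrin receptor Tfrc, and 1 of 11 T cell markers, Cd3d. The fall of Tfrc was not called with the bone marrow arrays averaged (adjusted p = 0.0156), and none of the 3 was called without either EO771 BrM array. No NK cell (10), platelet (11), dendritic cell (15) or mast cell, basophil and eosinophil marker (15) was called. At an unadjusted p under 0.05, dendritic cell markers had 1 higher and 4 lower, NK cell markers 1 and 1, platelet markers 1 and 3, and the last list 4 lower. Of all 18327 named genes 3943 passed that threshold in either direction, so such counts carry little.

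Genes of brain and epithelial cells, which a tumor could add, were near background in the main. Brain cell markers had list means of 4.31 and 4.41 in EO771 BrM against 4.54 to 4.66 in the naïve arrays, and 0 of 19 was called. At an unadjusted p under 0.05, 3 were lower, where 3943 of all 18327 named genes passed in either direction. Epithelial and carcinoma markers had 4.59 and 4.66 against 4.22 to 4.50, and 1 of 16 rose, the keratin Krt8 (7.65 and 7.34 against 4.13 to 4.82, difference 3.00, SE 0.29, adjusted p = 0.00276 from limma). Its second probe gave 0.08, and neither the mean of both probes (1.54) nor the first probe without EO771 BrM 1 or 2 (0.0474 and 0.0338) was called. Endothelial and fibroblast markers had 5.51 and 5.39 against 4.20 to 4.60, and 4 of 18 rose, Col4a1, Col4a2, Pdgfra and Sparc, which held with the bone marrow arrays averaged and of which 0 were called without EO771 BrM 1 or 2. At an unadjusted p under 0.05, 9 of the 18 were higher and 1 lower. Both EO771 BrM arrays lay above all naïve arrays for 10 of them, where 16.0% of all probes did so. Col4a1, a collagen of basement membranes, read 8.66 and 8.33 against 4.62 to 4.76. A second Pdgfra probe had a difference of 0.03 and was not called. Col1a1 and Col1a2, the collagen genes that define fibroblasts, read 2.56 to 4.59 in EO771 BrM, and the endothelial genes Cdh5 and Kdr 5.14 to 5.47, at most 0.68 above the naïve mean. The part of carried-over RNA in these markers was not tested.

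**Figure D4:**
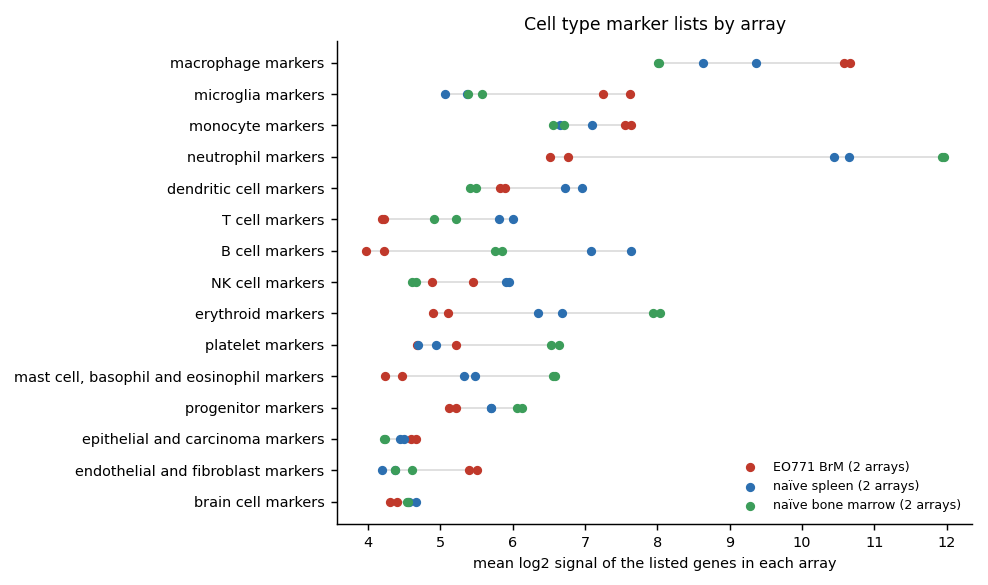
Mean log2 signal (x axis) of 15 lists of cell type markers in each of the 6 arrays, 1 row per list and 1 point per array, with a gray line over the range. Both EO771 BrM points lie above all naïve points for macrophage, microglia, monocyte, epithelial and carcinoma, and endothelial and fibroblast markers. They lie below all naïve points for neutrophil, B cell, T cell, erythroid, progenitor and brain cell markers and for those of mast cells, basophils and eosinophils.

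The sort was checked by its own genes. Itgam, which encodes CD11b, read 7.90 and 7.63 in EO771 BrM, 6.18 and 5.79 in naïve spleens, and 8.43 and 8.36 in naïve bone marrow. It was present in all arrays, lay between both control tissues in BrM, and was not called (0.58, SE 0.82, adjusted p = 0.791 from limma). Ptprc, the leukocyte antigen CD45, read 7.16 and 7.49 in EO771 BrM, 7.54 and 6.87 in naïve spleens, and 7.48 and 7.33 in naïve bone marrow (0.02, SE 0.27, adjusted p = 0.982).

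Some groups had no common answer because spleen and bone marrow lay on opposite sides of EO771 BrM. MHC class II presentation had a median of -1.72 against spleen alone and 0.50 against bone marrow alone, and 0 of 12 genes was called against both together, 2 being lower against the first (H2-Oa and H2-Ob) and 2 higher against the second (Ifi30 and Ctss). With the pair averaged H2-Oa and H2-Ob were called and Ifi30 and Ctss were not, and without EO771 BrM 1 or 2 none was. At an unadjusted p under 0.05, 1 was higher against both together, where 3943 of all 18327 named genes passed in either direction. H2-Ab1, a class II chain, read 11.89 and 12.89 in EO771 BrM, 14.15 and 14.06 in naïve spleens, and 11.85 and 11.89 in naïve bone marrow. Spleens were highest and the other tissues overlapped. H2-Oa and H2-Ob are known from B cells, whose markers were high in the same spleens. The part of B cells in these differences was not tested.

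Cell cycle genes had a median of -0.55 against spleen and -1.77 against bone marrow. None of 28 was called against spleen or against both tissues. At an unadjusted p under 0.05, 14 were lower against both, where 3943 of all 18327 named genes passed in either direction. Against bone marrow 12 were lower, where 3.05% of all probes were. Among them was the survivin gene Birc5. It read 7.06 and 7.39 in EO771 BrM, 8.87 and 8.03 in naïve spleens, and 10.38 and 10.29 in naïve bone marrow. The 12 became 0 with the pair averaged and 0 without EO771 BrM 1 or 2. Both EO771 BrM arrays lay below all naïve arrays for 16 of the 28, where 14.8% of all probes did so. The G protein regulator Rgs1 rose along the same kind of gradient. Its brightest probe read 12.79 and 12.77 in EO771 BrM, 8.97 and 9.97 in naïve spleens, and no more than 5 in naïve bone marrow. Other Rgs1 probes exceeded spleens by more, 4.60 and 4.72. By the brightest probe Rgs1 exceeded either tissue (3.31, adjusted p = 0.0061, and 7.88, adjusted p = 6.52e-04 from limma). By that probe it was not called against both pooled (5.59, adjusted p = 0.101), since the spread between the tissues enters that test. With the pair averaged its adjusted p was 0.0184 against spleen and 0.00990 against bone marrow. With spleen and bone marrow fitted as groups of their own and weighted equally, 1181 probes were higher and 1177 lower, and 360 and 314 with the pair averaged.

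**Figure D5:**
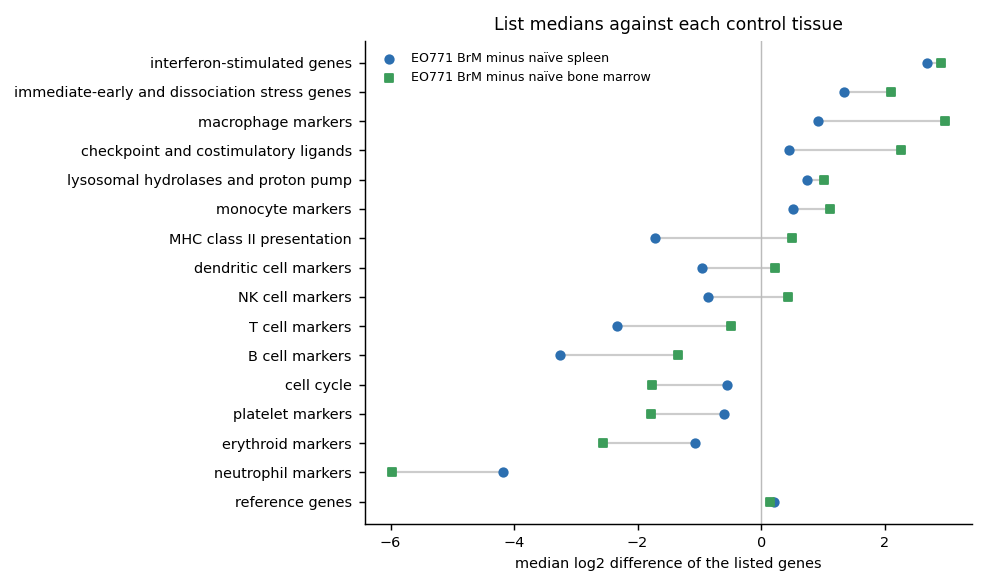
Median log2 difference (x axis) of the genes of 16 lists between EO771 BrM and naïve spleen (circles) or naïve bone marrow (squares), 1 row per list; both comparisons use the same EO771 BrM arrays. For MHC class II presentation the medians are -1.72 and 0.50, on opposite sides of 0, and for neutrophil markers -4.18 and -5.97.

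Iron handling lost 4 of 18 members and gained none (median -0.03). They were Tfrc, Lcn2, Ltf and Cd163, of which Lcn2 and Ltf are also in the neutrophil list. Slc40a1, the iron exporter ferroportin, read 10.09 and 8.17 in EO771 BrM, 13.80 and 13.95 in naïve spleens, and 12.84 and 12.79 in naïve bone marrow, and fell short of the call (-4.21, adjusted p = 0.0118 from limma). Hmox1, heme oxygenase 1, read 12.15 and 9.61 in EO771 BrM, a spread that covered the spleens (10.89 and 11.24). The count was 2 with the bone marrow arrays averaged and 1 to 3 with 1 array left out, being 1 without either EO771 BrM array.

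Several lists gave 1 or 2 calls in all. Alternative activation had 1 riser, Egr2, and 1 fall, Cd163, of 20 genes (median 0.31), complement 1 fall of 16, the complement regulator Cd55 (median 0.51), and hypoxia and glycolysis 1 fall of 25, the glucose transporter Slc2a3 (median 0.62). Slc2a3 read 7.48 and 6.83 in EO771 BrM against 10.61 to 12.27. Integrins had 1 riser of 19, the fibronectin receptor subunit Itga5, monocyte markers 1 of 13, the proteoglycan Vcan, and progenitor markers 1 of 10, Cd93. The progenitor list had a median of -0.72, and list means of 5.11 and 5.21 in EO771 BrM against 5.70 to 6.12. At an unadjusted p under 0.05, 4 of its members were lower, where 3943 of all 18327 named genes passed in either direction. Cd55, Itga5, Vcan and Cd93 were called with the bone marrow arrays averaged, and Egr2, Cd163 and Slc2a3 were not. Without either EO771 BrM array none of these 7 genes was called.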

How the data were processed

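RNA of sorted GFP+CD11b+ cells, isolated with the RNAqueous Micro kit, was hybridized to Illumina MouseWG-6 v2 arrays. The authors deposited log2 signals, quantile normalized over 14 arrays, and the submitters' processing notes name GenomeStudio 2011.1 and limma. The log base and the background correction are not given in the sources used here, and base 2 was taken from the range of the values.

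The 2 EO771 BrM arrays were compared with 4 naïve arrays in limma 3.58.1 (R 4.3.3, lmFit and eBayes, two-sided) on 45281 probes, with Benjamini-Hochberg adjustment over all of them and calls at an adjusted p under 0.01. EO771 BrM were also compared with each tissue in a fit of 3 groups, and the EO771 with the PyMT difference in a fit of all 14 arrays. The 1254 probes on the sex chromosomes were left out of counts. One gene symbol was held by 34885 probes, several by 18 and none by 10378 (22.9%). A gene was represented by the probe of the highest mean signal. With so few arrays, their number limits the precision. The study lists the arrays of each tissue as biological replicates but does not say that all came from separate mice. The codes of the bone marrow arrays share a stem. The p-values thus measure the spread between these samples, which may be technical.

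Genes were named by rule: the 12 largest called rises and falls, the 2 largest called in each direction per list, all promoter candidates measured, Itgam and Ptprc, and the 5 largest differences between models in each direction. Other genes were named after their values were seen. The comparison, members and 37 lists were chosen with earlier results of these data known. The fits were tested on simulated data. Promoter sequences are RefSeq, GRCm38.p6, and 14609 of 18327 measured genes had one. Alternatives covered the control groups, blocks, variance model, dim probes, normalization, the methods' t-test, the threshold and each array left out. List counts and comparisons with each tissue with the bone marrow arrays averaged, and list counts against each tissue without each EO771 BrM array, were added after seeing the data.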

Additional observations from a re-analysis of the deposited data

Results flagged for a closer look

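Differences between the EO771 and the PyMT model, tested in 1 limma fit of all 14 arrays, were called for several genes. Model and control change together, as PyMT controls bore tumors and EO771 controls did not, and cannot be told apart. The mix of spleen and bone marrow arrays differed between the controls too. The difference of EO771 BrM exceeded that of PyMT BrM on the log2 scale by 4.70 for Dppa4 (SE 0.55, adjusted p = 0.00286), by 4.55 for Rsad2 (SE 0.61, adjusted p = 0.00609) and by 4.41 for Oasl1 (SE 0.49, adjusted p = 0.00170). It exceeded it by 4.36 for Mx1 (SE 0.60, adjusted p = 0.00648) and by 4.12 for the dimmer probe of Cxcl10 (SE 0.49, adjusted p = 0.00295), where the brighter probe gave 3.25 (adjusted p = 0.165).

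EO771 minus PyMT was -5.76 for Col14a1 (SE 0.76, adjusted p = 0.00556), -5.67 for Mgp (SE 0.78, adjusted p = 0.00648) and -4.17 for the dimmer probe of Tmem273 (SE 0.52, adjusted p = 0.00328). It was -3.71 for Ccl17 (SE 0.55, adjusted p = 0.00891) and -3.15 for Mmp2 (SE 0.41, adjusted p = 0.00471).

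Among the 4 naïve arrays, 1 array stood apart from the other 3 for 3 of 72 probes looked at, by the gap to the nearest array as a share of the range. The share was 0.932 for Cxcl10, 0.842 for Plk2 and 0.830 for Mmp14, each past Dixon's critical value at 95%, which chance passes in about 1 of 20 groups.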

How the results depend on the processing

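Without the naïve tissues pooled, as 3 groups, 1181 probes were higher and 1177 lower. Leaving out dim probes gave 811 and 404, all 14 arrays 870 and 507, the bone marrow arrays averaged 246 and 78, the methods' t-test with Benjamini-Hochberg adjustment 30 and 12, and an adjusted p under 0.05 gave 1271 and 805. A mean-variance trend gave 360 lower. With 1 array left out, 14 to 289 were higher and 2 to 135 lower. Against spleen the trend gave 2543 higher and 2625 lower, leaving out dim probes 2236 and 2284, and all 14 arrays 390 lower, and 33 to 197 were higher and 62 to 234 lower with 1 array left out. Against bone marrow the values were 3516 and 3466, 3241 and 3297, and 881 lower, with 0 to 742 higher and 0 to 856 lower with 1 array left out, the 0 being without EO771 BrM 2. With the bone marrow arrays averaged 197 were higher and 234 lower than in spleen, 43 and 39 than in bone marrow, and 360 and 314 as 3 groups. A lone array was assumed to vary like the other groups. The EO771 and PyMT differences differed for 21 probes with 6 conditions weighted equally. The cause was not tested.

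Whether the replicate numbers of the titles pair the samples was checked by the correlations of deviations. That of EO771 BrM with spleen was -0.0123 and gave no sign of pairing. Those with bone marrow were 0.00683 for EO771 BrM and 0.00877 for spleen. Since the bone marrow arrays may be repeats of the same sample, their deviation may be technical, and these values cannot decide on pairing. With the number as a replicate block 185 probes were higher and 54 lower, 210 and 252 against spleen, and 553 and 601 against bone marrow.

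None of the 64 called differences changed sign; those of Mgp (-0.136 to 0.592) and Ptprc (-0.264 to 0.186), not called, did. The mouse code as a random block, robust variance, cyclic loess and centring on reference genes kept both pooled counts within 1.5 times. Probes near background and the 2 EO771 BrM arrays limit these results.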
